A study of Mus musculus with 6 samples.

Results

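Families of RNA-binding proteins that shorten the life of immune mRNAs were followed in regulatory T cells (Tregs) by bulk RNA-seq, namely the Zfp36 family (Zfp36, Zfp36l1 and Zfp36l2), the Regnase family (Zc3h12a, Zc3h12c and Zc3h12d) and the Roquin pair (Rc3h1 and Rc3h2). These 8 genes were chosen by family membership, by matching the Ensembl identifiers of the count table to GENCODE M21 symbols, and all 8 were found among its 49315 genes. On GRCm38 the Zfp36 genes lie at chr7:28376784-28380253 (Zfp36), chr12:80107754-80113013 (Zfp36l1) and chr17:84183931-84187947 (Zfp36l2). Zc3h12a lies at chr4:125118423-125127840, Zc3h12c at chr9:52111344-52168572 and Zc3h12d at chr10:7832470-7870396. The Roquin genes lie at chr1:160906418-160974978 (Rc3h1) and chr2:37370069-37422903 (Rc3h2). The cells came from Foxp3-GFP mice, in which a fluorescent protein reports the Treg transcription factor Foxp3, at 9 days of age. Both groups carried this reporter, and the labels name no treatment. One group was sorted from skin and the other from skin-draining lymph nodes (SDLNs), as live CD45+ CD4+ Foxp3-EGFP+ cells after CD45 bead enrichment, and each of the 3 libraries per tissue pooled 3 biological replicates. The study describes both tissues as digested, by reference to an earlier procedure. In that procedure, given for flow cytometry, skin is digested with enzymes and lymph nodes are mashed.

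Zfp36 proteins, of which Zfp36 (tristetraprolin) is the founding member, bind AU-rich elements in the 3′ untranslated region (UTR) of an mRNA and recruit the CCR4-NOT complex, which removes the poly(A) tail. Regnase-1, the product of Zc3h12a, is an endonuclease that cuts mRNAs at stem-loops in their 3′ UTRs, and Roquin-1 and Roquin-2, the products of Rc3h1 and Rc3h2, bind similar stem-loops and recruit deadenylases and decapping factors. In T cells these proteins are known as brakes on activation, with cytokine, costimulatory receptor and NF-kB pathway mRNAs among their reported targets.

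The Zfp36 proteins recognise the heptamer UAUUUAU. It was searched for, as TATTTAT, in the 3′ UTR of the longest coding transcript of each gene, with positions on GRCm38. At least 3 copies stood in 3.94% of 21699 coding genes and at least 1 copy in 26.5%. Zfp36, Zfp36l1 and Zfp36l2 each held 3 copies, and so did Rc3h2. Rc3h1 and Zc3h12c held 2 each, while Zc3h12a and Zc3h12d held 0. The sites below are shown because they place the heptamer in the mRNAs of the family itself and in those of 4 reported targets, with 10 bases on either side and the heptamer in capitals.
Zfp36, first site, chr7:28376967-28376993, minus strand: gtgggcccttTATTTATgacgacttta
Zfp36, second site, chr7:28376952-28376978, minus strand: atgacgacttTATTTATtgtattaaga
Zfp36, last site, chr7:28376927-28376953, minus strand: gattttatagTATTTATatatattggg
Zfp36l1, first site, chr12:80108423-80108449, minus strand: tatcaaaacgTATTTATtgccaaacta
Zfp36l2, first site, chr17:84184915-84184941, minus strand: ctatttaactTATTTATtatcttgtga
Rc3h2, first site, chr2:37374757-37374783, minus strand: ccagctgcttTATTTATctttttcatt
Tnf, site 3 of 8, chr17:35199683-35199709, minus strand: tattatttatTATTTATttattattta
Il10, the first of 4 sites, chr1:131024386-131024412, plus strand: ctctccgaaaTATTTATtacctctgat
Fos, the first of 2 sites, chr12:85477104-85477130, plus strand: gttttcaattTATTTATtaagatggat
Rel, the first of 2 sites, chr11:23739877-23739903, minus strand: aaatagtagcTATTTATtagaaaaggg
In Zfp36 the 3 heptamers lay within one short stretch of a 3′ UTR of 774 bases, the first at base 575 and the last at base 615. In Tnf, 7 of the 8 copies are spaced so closely that neighbouring windows overlap. A match is a description of the letters and does not show binding.

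The promoters of Zfp36 and Zfp36l1 are shown because Zfp36 spread over a wide range among the skin libraries and its paralogue Zfp36l1 over a narrow one. Both sequences are the 250 bases before the RefSeq start on GRCm38.p6, read in the direction of the gene.
Zfp36, chr7:28379229-28379478, minus strand: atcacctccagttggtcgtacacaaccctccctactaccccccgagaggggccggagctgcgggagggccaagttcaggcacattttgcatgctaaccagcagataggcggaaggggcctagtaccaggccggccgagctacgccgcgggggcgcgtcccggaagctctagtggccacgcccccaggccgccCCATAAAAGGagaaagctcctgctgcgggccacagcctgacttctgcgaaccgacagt
Zfp36l1, chr12:80113014-80113263, minus strand: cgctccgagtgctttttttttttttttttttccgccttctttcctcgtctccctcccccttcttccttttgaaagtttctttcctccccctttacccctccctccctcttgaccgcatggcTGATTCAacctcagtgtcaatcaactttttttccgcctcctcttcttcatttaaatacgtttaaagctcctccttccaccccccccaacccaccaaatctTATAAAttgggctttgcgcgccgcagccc
Capitals mark a CArG box, the element that serum response factor recognises, 58 bases before the start of Zfp36, and in Zfp36l1 an AP-1 motif (TGANTCA) and a TATA motif (TATAAA) that begin 129 and 29 bases before its start. Searched on both strands over the whole window of 300 bases, a CArG box stood in 1.63% of 32851 RefSeq promoters, the AP-1 motif in 7.81% and the TATA motif in 13.6%. The Rc3h1 promoter also held an AP-1 motif. For Zfp36l2 the table has no entry. The RefSeq start of Zfp36 lies inside the longer gene model that GENCODE M21 gives it.

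Several measurements of the libraries bear on every value that follows. Total counts were 3748669 to 11741784 in skin Tregs and 47243498 to 116158706 in SDLN Tregs, and 2911 to 5317 against 12397 to 13002 genes reached 1 CPM (counts-per-million relative to all counts of a library). The libraries of each tissue are named A, B and C, and values are given in that order. Foxp3 had 0, 330 and 1 counts in skin Tregs, and 1788 to 12208 counts in the SDLN libraries. Izumo1r, which encodes the Treg folate receptor FR4, had 0 counts in all skin libraries, and Cd4 had 0, 1861 and 2 counts. Skin Tregs A and C thus go against a sort of CD4+ Foxp3+ cells in these defining markers. Other Treg markers were found in both libraries. In skin Tregs A, Ctla4, Il2ra, Tnfrsf18 and Ikzf2 measured 1181, 2232, 636 and 110 CPM, and in skin Tregs C 796, 534, 421 and 1458 CPM. Nrp1 had 88.6, 0 and 0 CPM in skin and 163 to 267 CPM in SDLN Tregs. The summed level of 8 Treg markers was 5793 to 7783 CPM in skin and 5622 to 6268 CPM in SDLN Tregs, and Capg, also made by other cells, gave 1545, 2102 and 4012 CPM of it in skin. Over 16 T cell markers the sum was 4944 to 8215 CPM in skin and 11826 to 14108 CPM in SDLN Tregs. Of 21 myeloid markers, 20 were tested, of which 17 were higher and 1, Itgam, was lower in skin Tregs, and their sum was 35659 to 62219 CPM against 717 to 1001 CPM. Among markers of other cells, 0 of those tested were higher in skin, with 6 of 8 B cell genes tested (sum 586 to 861 against 1478 to 1716 CPM), 4 of 8 fibroblast genes (92.8 to 400 against 233 to 250 CPM) and 2 of 9 mast cell and granulocyte genes (0 to 226 against 11.6 to 26.9 CPM, the 226 CPM of skin Tregs A being mostly from genes not tested), and all 9 keratinocyte markers had 0 counts in skin (7.14 to 9.59 CPM in SDLN Tregs). Most of the fibroblast sum was Thy1, which is also on the T cell list, at 218, 310 and 92.0 CPM in skin and 224 to 246 CPM in SDLN Tregs. In bulk samples, fewer cells of a type and less RNA per cell cannot be told apart.

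Many genes were missing from single skin libraries. A count of 3 or fewer is called the floor here, equal to 0.800, 0.255 and 0.332 CPM in skin Tregs. Among genes with a mean of 30 to 100 CPM in SDLN Tregs, the range that holds Zfp36l2, Rc3h1 and Rc3h2, 79.0%, 50.3% and 57.0% were at the floor in skin libraries A, B and C in turn. Foxp3, with a mean of 94.0 CPM, lies in that range too. Among genes at 300 to 1000 CPM, the range of Zfp36l1 and Zc3h12d and also of Izumo1r and Cd4, the shares were 29.5%, 3.51% and 5.98%. Absence of a member from a single skin library was therefore shared with a large part of the genes expressed at its level.

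The question the comparison addresses is how Tregs of the skin differ from those of its lymph nodes. None of the 8 decay factor genes passed the test in either direction, by edgeR's quasi-likelihood test with Benjamini-Hochberg adjustment over 13572 genes at a threshold of 0.05. That is 0 of 8 members, where 46.3% of all tested genes were called, 1.04% as higher in skin and 45.3% as higher in SDLN Tregs. At an unadjusted p under 0.05 the count was 1 of 8, Zfp36, where 48.1% of tested genes passed. DESeq2 called 1 member, Zfp36, as higher in skin, where it called 2.98% of all genes so, and limma voom called 1, Zc3h12c, as higher in SDLN Tregs, where it called 51.6%. With skin Tregs B, the only skin library with Foxp3 above the floor, set alone against the 3 SDLN libraries, edgeR called 4 members higher in skin and 1 lower, where 10.6% and 46.0% of all genes were called so. This fit was chosen after seeing the data and assumes that the lone library varies as the SDLN libraries do. Skin Tregs B also held 39503 CPM of summed myeloid markers and 0 counts of Izumo1r and Nrp1. Its Foxp3 level of 28.1 CPM lay below all SDLN libraries (37.8 to 139 CPM). The part of myeloid RNA in the calls of this fit was not tested. The median log2 fold change, skin over SDLN, was 0.33 over the 8 members and −2.21 over all genes tested. With at least 10 counts required in every library, 1396 genes were tested, of which 81 were higher and 9 lower in skin, and their median was 0.077. Zfp36, Zfp36l1 and Zc3h12d were the members among them. Such a requirement drops genes with few reads in the smaller skin libraries by design. These values are therefore a description, and why the balance of calls and the median moved was not tested.

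**Figure D1:**
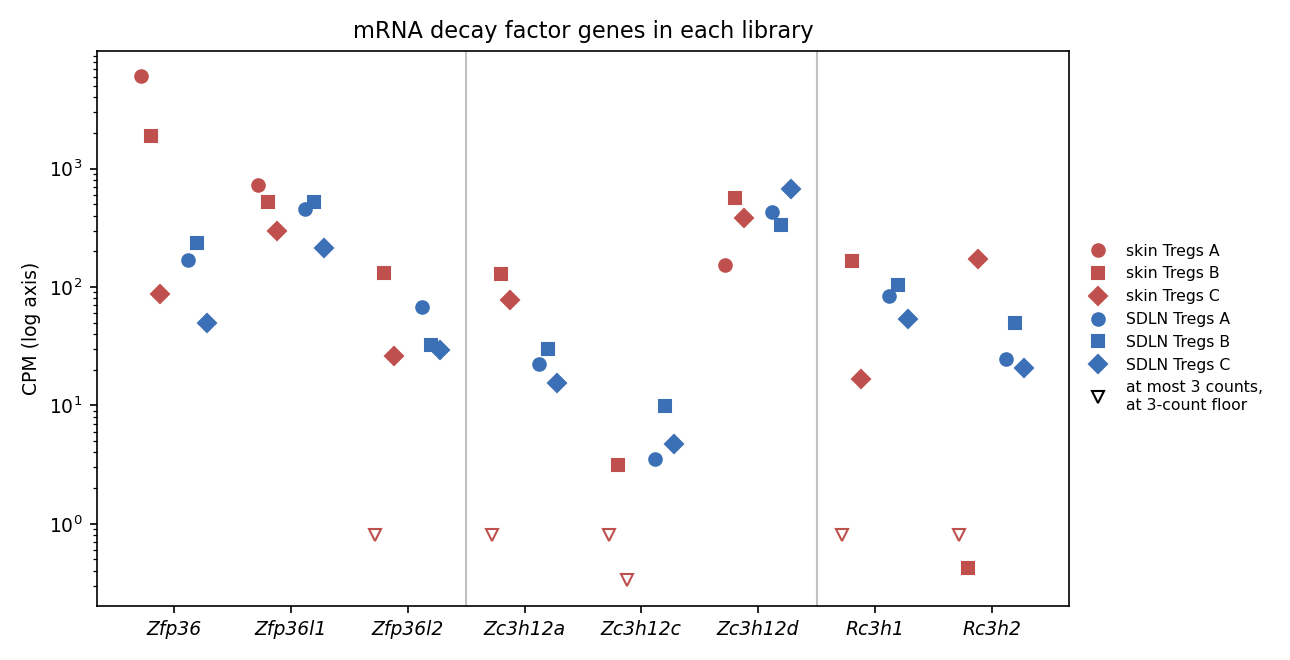
CPM on a log axis of the 8 decay factor genes in each of the 6 libraries, with skin Tregs in red, SDLN Tregs in blue and open triangles for libraries at the floor. Zfp36 spans 87.9 to 6063 CPM among the skin libraries, Zfp36l1 and Zc3h12d lie at similar levels in both tissues, and the remaining members are at the floor in at least 1 skin library.

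Zfp36 reached 6063 CPM in skin Tregs A, 1872 CPM in skin Tregs B and 87.9 CPM in skin Tregs C. In SDLN Tregs it measured 170, 235 and 49.8 CPM. Skin Tregs A and B lay above all SDLN libraries, while skin Tregs C lay among them, so the groups overlapped. The means were 2674 ± 3068 CPM in skin and 151 ± 93.9 CPM in SDLN Tregs (SD, n = 3 each). The log2 fold change was 3.83 ± 1.33 (SE, 95% interval 0.53 to 7.13), and the p by edgeR was 0.0300 before and 0.0638 after adjustment. Without skin Tregs C the log2 fold change was 4.24 and the adjusted p 0.0139, in a fit that called 1.21% of genes higher in skin. Without skin Tregs A it was 2.63 with an adjusted p of 0.191. DESeq2 gave an adjusted p of 0.00100, whereas voom gave 1.94 with an adjusted p of 0.395. Upper-quartile scaling gave 11.78 with an adjusted p of 0.0843. Over 16 alternative settings the direction held in 16, the gene was called in 2, and the adjusted p ran from 0.00100 to 0.395.

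Corrected for length, as CPM per kb of merged exons, Zfp36 was the 21st most abundant gene of skin Tregs A, the 76th of skin Tregs B and the 2390th of skin Tregs C. In SDLN Tregs its ranks were 1355, 882 and 3704. Zfp36 is itself an immediate-early gene, and beside it stood 27 immediate-early and heat-shock genes that are known to respond to enzymatic digestion. Their summed level was 35513, 23526 and 17975 CPM in skin Tregs and 6090 to 7720 CPM in SDLN Tregs. Of the 27, 11 were higher and 2 lower in skin, beside 1.04% and 45.3% of all tested genes. The summed myeloid markers stood at 62219, 39503 and 35659 CPM in the skin libraries in the same order. Both sums and Zfp36 were highest in skin Tregs A and lowest, within skin, in skin Tregs C. The part of digestion and of myeloid RNA in the Zfp36 level was not tested.

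**Figure D2:**
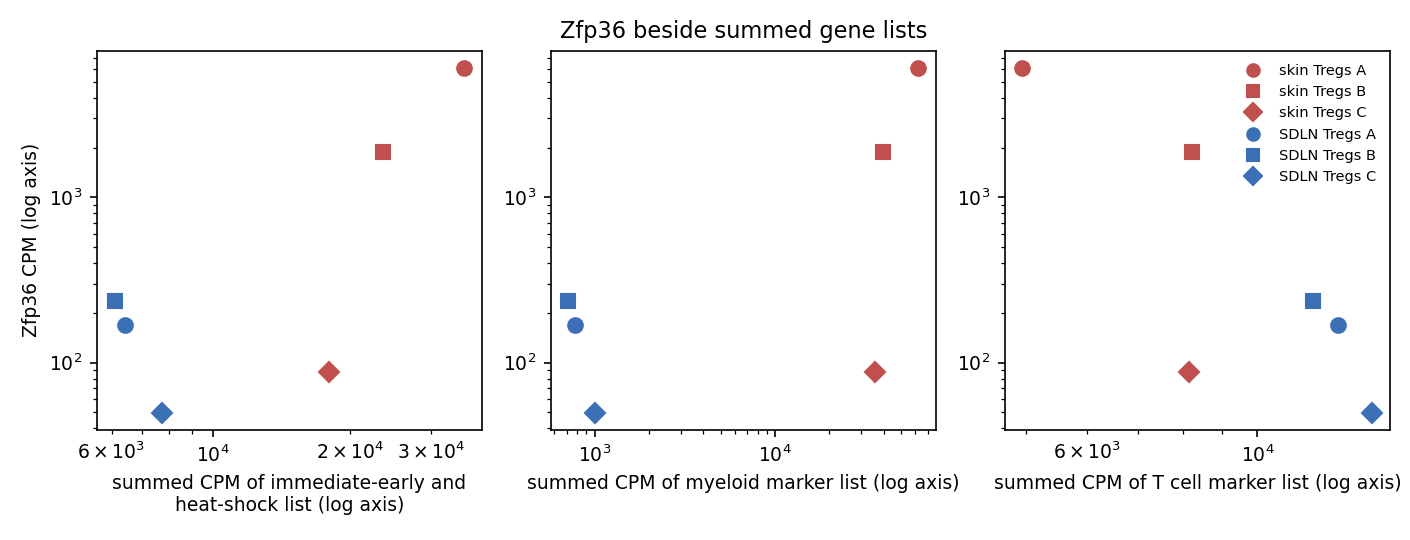
Zfp36 CPM (vertical, log axis) against the summed CPM of the immediate-early and heat-shock list, the myeloid marker list and the T cell marker list (horizontal, log axes), 1 point per library. Skin Tregs C has sums of 17975 and 35659 CPM on the first and second list, above all SDLN libraries, and a Zfp36 level of 87.9 CPM, within the SDLN range.

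Zfp36l1, the paralogue that in lymphocytes acts with Zfp36l2 in quiescence and development, was found in all libraries. It measured 730, 527 and 300 CPM in skin Tregs, and 454, 521 and 213 CPM in SDLN Tregs. The skin and SDLN ranges overlapped over most of their length. Its log2 fold change was 0.30 ± 0.496 (SE), with a 95% interval of −0.93 to 1.52 and an adjusted p of 0.805 by edgeR. An increase or decrease within that interval cannot be told from no change here. Under upper-quartile scaling the value was 7.34, with an adjusted p of 0.127. Its exons overlap those of the lincRNA Gm26669 on the opposite strand over 1672 bases, and the strand setting of the counting is not stated. Gm26669 itself held 0 to 3 counts in skin and 43 to 144 counts in SDLN Tregs. Shorter overlaps with genes of the opposite strand were found for Zfp36 (Gm44710, 125 bases), Zfp36l2 (AC132455.1, 105 bases) and Zc3h12c (Mir6244, 117 bases).

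Zfp36l2 was found in skin Tregs B at 130 CPM and in skin Tregs C at 25.9 CPM, and it had 0 counts in skin Tregs A. SDLN Tregs held 68.3, 32.3 and 29.5 CPM. Skin values therefore lay on both sides of the lymph node range. Between tissues the log2 fold change was 0.37 ± 2.22 (SE), with a 95% interval of −5.14 to 5.88, and an adjusted p of 0.962 by edgeR. Its sign turned without skin Tregs B, to −1.42, and under voom, to −3.03 (adjusted p 0.282).

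Within the Zfp36 family, shares of the reads per kb do not depend on scaling between libraries. Zfp36 made up 87.7%, 71.7% and 19.1% of the family in skin Tregs, and 22.2%, 26.9% and 15.2% in SDLN Tregs. Zfp36l1 held most of the rest, with 12.3%, 23.4% and 75.4% in skin and 69.0%, 69.4% and 75.9% in SDLN Tregs. Skin Tregs A and B were thus dominated by Zfp36, and skin Tregs C had the Zfp36l1-led makeup of the lymph node libraries. The mean Zfp36 share was 38.0 percentage points higher in skin, with an exact two-sided permutation p of 0.3 (adjusted over 3 shares 0.6), in a design whose smallest possible p is 0.1. Without skin Tregs A the difference was 23.9, and without skin Tregs C it was 58.2.

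**Figure D3:**
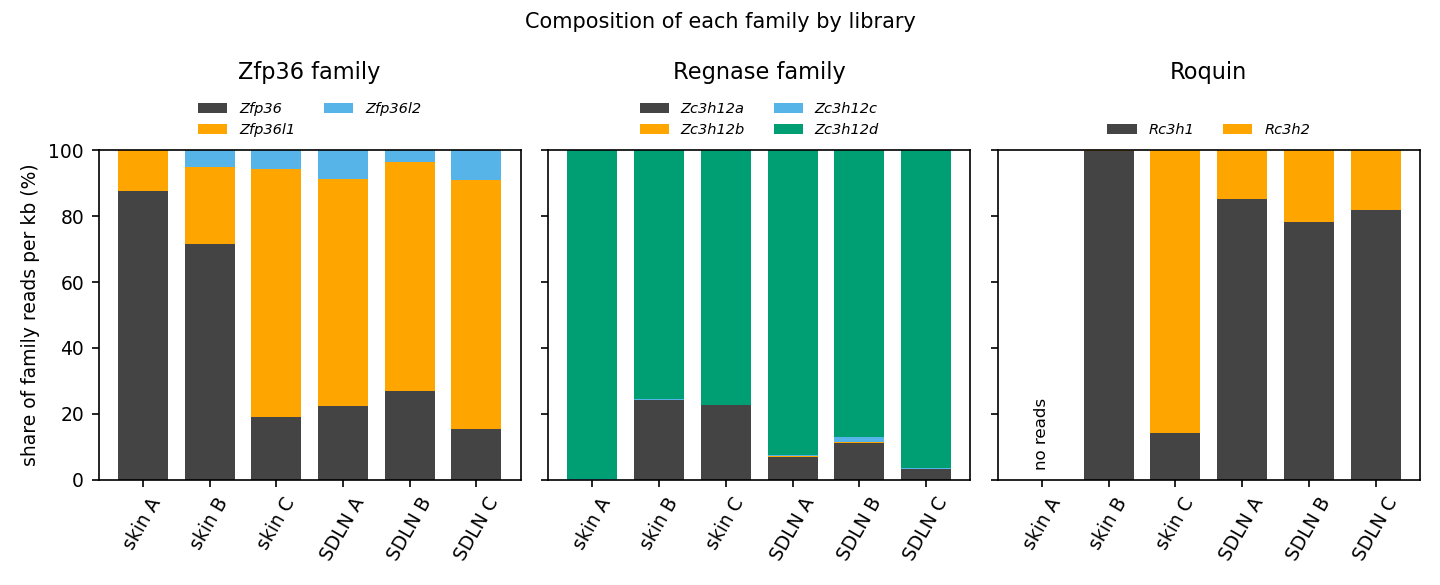
Share of each family's reads per kb taken by each gene, in percent, for the 6 libraries. Zfp36 fills 87.7% and 71.7% of its family in skin Tregs A and B and 15.2% to 26.9% in SDLN Tregs, Zc3h12d leads the Regnase family in all libraries, and the Roquin pair has no reads in skin Tregs A.

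Zc3h12a, the gene of the endonuclease Regnase-1, had 0 counts in skin Tregs A, 128 CPM in skin Tregs B and 78.3 CPM in skin Tregs C. It measured 22.5, 30.1 and 15.5 CPM in SDLN Tregs. The 2 skin libraries in which it was found lay above all lymph node libraries, and skin Tregs A lay below them. The log2 fold change was 1.79 ± 2.25 (SE, 95% interval −3.80 to 7.37), with an adjusted p of 0.707 by edgeR, and voom with quality weights gave the other sign. Malt1, the paracaspase that cleaves Regnase-1 and Roquins after T cell receptor signalling, was found mainly in skin Tregs B among the skin libraries, at 314 CPM against 0 and 0.443 CPM in skin Tregs A and C.

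Zc3h12d, the gene of Regnase-4, was the most abundant Regnase in every library. Its levels were 153, 568 and 380 CPM in skin Tregs and 432, 331 and 673 CPM in SDLN Tregs. Only skin Tregs A lay below the lymph node range. With a log2 fold change of −0.31 ± 0.754 (SE, 95% interval −2.18 to 1.56) and an adjusted p of 0.886 by edgeR, no difference was detectable. Under upper-quartile scaling the value was 4.80. Zc3h12d made up 75.6% to 99.9% of the Regnase reads per kb in skin and 87.1% to 96.4% in SDLN Tregs.

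The Zc3h12a share of the Regnase reads per kb was 0%, 24.2% and 22.6% in skin Tregs, against 6.86%, 11.2% and 3.14% in SDLN Tregs. Skin Tregs B and C were above and skin Tregs A was below the lymph node values. The mean was 8.52 percentage points higher in skin, with an exact two-sided permutation p of 0.4 (adjusted 0.6). It was 16.3 without skin Tregs A, 4.24 without skin Tregs B and 4.99 without skin Tregs C.

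Zc3h12c, the gene of Regnase-3, had the lowest mean CPM of the members in both tissues. It had 1, 37 and 0 counts in skin Tregs, of which the second equals 3.15 CPM, and 3.52, 9.82 and 4.76 CPM in SDLN Tregs. It was the only member whose groups did not overlap, 1 of 8, where 55.9% of tested genes did not overlap. For Zc3h12c the log2 fold change was −2.29 ± 1.42 (SE, 95% interval −5.81 to 1.24), close to the median of all genes, with an adjusted p of 0.309 by edgeR. Without skin Tregs B, in which most of its skin reads were found, it was −6.15 with an adjusted p of 0.00972, where the median of all genes was −7.41 and 48.9% were called lower in skin. Zc3h12b, the Regnase outside the 8 members, had 0 counts in skin and 0.656 to 2.07 CPM in SDLN Tregs.

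Rc3h1 had 0 counts in skin Tregs A, 165 CPM in skin Tregs B and 16.7 CPM in skin Tregs C. SDLN Tregs measured 83.2, 103 and 53.8 CPM. One skin library was above, and the others below, every lymph node library. The log2 fold change was −0.30 ± 2.26 (SE, 95% interval −5.92 to 5.32), with an adjusted p of 0.971 by edgeR, and its sign turned without skin Tregs A, to 0.13. Without skin Tregs B it was −2.91, and under voom −3.98 with an adjusted p of 0.135.

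Rc3h2 was found mainly in the other skin library. It had 0 counts in skin Tregs A, 5 counts in skin Tregs B and 174 CPM in skin Tregs C, whereas SDLN Tregs held 24.9, 50.1 and 20.6 CPM. Skin Tregs C alone carried the skin level. For Rc3h2 the log2 fold change was 1.23 ± 2.71 (SE, 95% interval −5.51 to 7.96), with an adjusted p of 0.871 by edgeR, and without skin Tregs C it was −7.11 with an adjusted p of 0.0188. In that fit the median of all genes was −7.20, and 46.5% of genes were called lower in skin. Under voom Rc3h2 was −2.33, with an adjusted p of 0.460.

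As a share of the Roquin pair per kb, Rc3h1 took 99.9% in skin Tregs B and 14.3% in skin Tregs C, and no Roquin reads were found in skin Tregs A. In SDLN Tregs its share was 85.3%, 78.1% and 81.9%. The lymph node libraries lay close together, and the 2 skin libraries lay on opposite sides of them. The difference of the means, −24.7 percentage points over 2 skin and 3 SDLN libraries, had an exact two-sided permutation p of 0.8 (adjusted 0.8), where the smallest possible p is 0.2, and the difference was −67.5 without skin Tregs B and 18.1 without skin Tregs C.

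**Figure D4:**
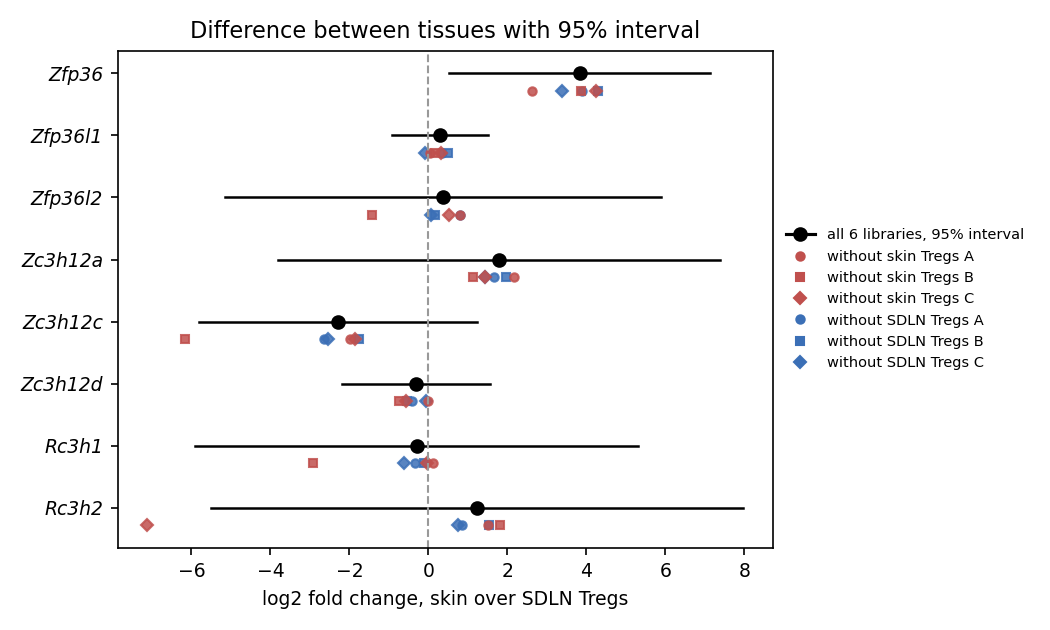
Log2 fold change, skin over SDLN Tregs, of each decay factor gene with its 95% interval over all 6 libraries (black), and below it the value with each library left out in turn (coloured). The interval of Zfp36 runs from 0.53 to 7.13, the intervals of the other members include 0, and leaving out skin Tregs B or C moves Zc3h12c to −6.15 and Rc3h2 to −7.11.

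Ordered by CPM per kb, the lymph node Tregs gave Zfp36l1 (132 ± 54.1), Zc3h12d (117 ± 42.9), Zfp36 (43.7 ± 27.1), Zfp36l2 (12.3 ± 6.14), Zc3h12a (7.88 ± 2.55), Rc3h1 (7.08 ± 2.19), Rc3h2 (1.62 ± 0.811) and Zc3h12c (0.882 ± 0.488, SD, n = 3). Of neighbours in this order, only Zc3h12d and Zfp36, and Rc3h1 and Rc3h2, did not overlap. In skin Tregs the order began with Zfp36 (771 ± 884), Zfp36l1 (174 ± 72.0) and Zc3h12d (89.6 ± 50.8), and all neighbours overlapped. Zfp36l1 was above Zc3h12d in each of the 3 skin libraries. Zfp36 per kb is set low by its gene model, whose merged exons of 3470 bases cover the whole gene.

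Likeness of pattern was measured as Pearson's r of log2(CPM + 1) over the 6 libraries among 8270 genes whose mean was 10 CPM or more, as a description. Closest to Zfp36 were Tnfrsf9, which encodes the activation-induced receptor 4-1BB (r = 0.995), Esco1 (0.987) and Mpeg1 (0.985), a gene best known from macrophages. Tnfrsf9 measured 1419, 985 and 302 CPM in skin Tregs and 222 to 481 CPM in SDLN Tregs. Mpeg1 had 499, 147 and 0 CPM in skin and 0.381 to 11.2 CPM in SDLN Tregs.
For Zfp36l1 the nearest genes were mt-Nd1 (0.986), Fxyd5 and Ldha. For Zc3h12d they were Nans (0.968), Spcs2 and Ranbp1, and for Zc3h12a Kansl3 (0.999), Tmcc1 and Pfkfb3. The nearest genes of Rc3h1 were Rhoh (0.9995), Neurl3 and Lypla1, those of Rc3h2 were Gabpb2 (0.998), Slc5a3 and Sp4, and those of Zfp36l2 were Gm26917 (0.992), Coa6 and Rapgef1. For members missing from a skin library, r rests largely on which libraries hold reads.

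The machinery that the decay factors recruit was counted next. Of 19 tested CCR4-NOT, poly(A) nuclease and poly(A)-binding genes, 1 was higher in skin and 3 were higher in SDLN Tregs, with a median log2 fold change of −0.21. Of all tested genes, 1.04% and 45.3% were called in those directions. The one that rose was Btg2, an antiproliferative gene that activates the deadenylase, at 1718, 556 and 529 CPM in skin Tregs and 240 to 274 CPM in SDLN Tregs (log2 fold change 1.69 ± 0.455 SE, adjusted p 0.0241 by edgeR). Btg2 is also on the list of digestion-responsive genes. Pabpc1, the main cytoplasmic poly(A)-binding protein, was lower, at 311 to 710 CPM in skin and 990 to 1751 CPM in SDLN Tregs (−1.40 ± 0.369, adjusted p 0.0224). Cnot6 and Pabpc4 were the others called, with at most 3 counts in any skin library, and passed the filter on low counts only through SDLN Tregs. Cnot1, the scaffold of the complex, had 0, 0 and 195 CPM in skin Tregs and 163 to 338 CPM in SDLN Tregs (adjusted p 0.832).

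Of 18 tested decapping and 5′-to-3′ decay genes, 0 were higher in skin and 4 in SDLN Tregs (Dcp2, Dcp1b, Dcp1a and Gigyf2), with a median of −0.82. Those 4 had at most 6 counts in any skin library and passed the filter on low counts only through SDLN Tregs. The count and the median of this list are therefore a description. Of 13 tested exosome and Ski complex genes the numbers were 0 and 3 (Ttc37, Skiv2l and Exosc4), with a median of −0.93. Those 3 had at most 1 count in any skin library and likewise passed the filter only through SDLN Tregs. Dcp2, the decapping enzyme, had 0 counts in skin and 15.9 to 29.4 CPM in SDLN Tregs. Each of these lists has a smaller share of genes higher in SDLN Tregs than the 45.3% of all tested genes, and whether they differ from other genes in this was not tested. Of 13 other AU-rich element binders, 0 were higher in skin and 2 in SDLN Tregs, Tia1 and Zfp871. Elavl1, whose product HuR stabilises AU-rich mRNAs, had 0, 127 and 0.111 CPM in skin Tregs and 171 to 231 CPM in SDLN Tregs (adjusted p 0.682).

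Among 23 tested genes that act on the decay factors, 2 were higher in skin and 4 in SDLN Tregs, with a median log2 fold change of 0.13. The shares of all tested genes in those directions were 1.04% and 45.3%. Dusp1, the phosphatase that switches off the p38 kinase that inactivates Zfp36, measured 7464, 3994 and 4161 CPM in skin Tregs and 102 to 115 CPM in SDLN Tregs (log2 fold change 5.46 ± 0.240 SE, adjusted p 0.00322 by edgeR). Tnfaip3, the gene of the NF-kB inhibitor A20, measured 972, 577 and 556 CPM in skin and 38.9 to 75.5 CPM in SDLN Tregs (3.43 ± 0.530, adjusted p 0.00386). Both genes were high in all skin libraries, unlike Zfp36. The genes lower in skin were Map3k7, Nufip2 (a Roquin cofactor), Ppp2ca and Mapk14 (p38 alpha), with 0 to 6 counts in each skin library. With so few reads in skin, these 4 entered the test through SDLN Tregs, so their count is a description. Mapkapk2, the kinase downstream of p38 that phosphorylates Zfp36, had 445, 0.170 and 178 CPM in skin Tregs and 29.0 to 45.4 CPM in SDLN Tregs (adjusted p 0.537). Arid5a, which protects mRNAs from Regnase-1, was at 217, 191 and 0 CPM in skin and 57.9 to 117 CPM in SDLN Tregs (adjusted p 0.966).

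Of 23 listed mRNAs reported as Zfp36 targets, 14 could be tested, of which 5 were higher in skin and 4 in SDLN Tregs, beside 1.04% and 45.3% of all tested genes in those directions. Their median log2 fold change was 1.10. Fos, an immediate-early transcription factor, measured 4175, 2478 and 588 CPM in skin Tregs and 8.57 to 16.2 CPM in SDLN Tregs (7.31 ± 0.755 SE, adjusted p 0.00322 by edgeR). Il10, the Treg effector cytokine, stood at 280, 303 and 163 CPM in skin and at 10.7 to 23.5 CPM in SDLN Tregs (3.79 ± 0.999, adjusted p 0.0221). Il1b, a cytokine best known from myeloid cells, stood at 609, 623 and 384 CPM in skin and had 0 counts in SDLN Tregs. Dusp1 and the chemokine Ccl3 were the other 2 that rose. Fos and Dusp1 are also on the list of digestion-responsive genes, whose summed level moved with tissue as given above, and the part of digestion in these values was not tested.

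The targets that were lower in skin were Ifng, Tnf, E2f1 and Bcl2, with at most 2 counts in any skin library. Tnf, whose AU-rich element is the classical Zfp36 site, had 0 counts in skin and 15.4, 23.1 and 8.81 CPM in SDLN Tregs. Il2 had 0, 3.24 and 2.21 CPM in skin and 0.889 to 1.68 CPM in SDLN Tregs (adjusted p 0.704), and Myc 0, 69.5 and 183 CPM against 225 to 269 CPM (adjusted p 0.787). Ier3 was found at 74.2 CPM in skin Tregs A, with 2 and 0 counts in skin Tregs B and C, and at 0.783 to 2.79 CPM in SDLN Tregs (adjusted p 0.448). Those 4 passed the filter on low counts only through SDLN Tregs, and Il1b passed only through skin, so that the counts of reported targets called in each direction, and their median, are a description. Ccl3, E2f1 and Bcl2 complete the counts and were chosen after their values were seen.

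**Figure D5:**
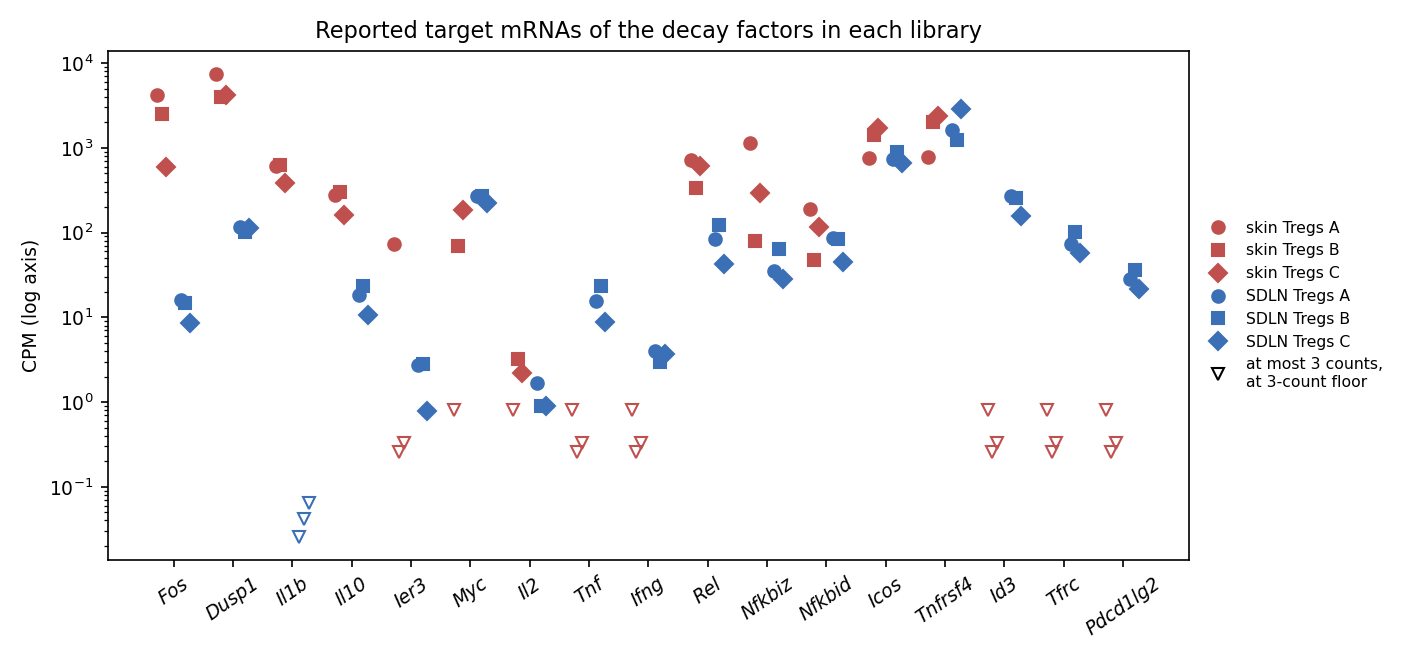
CPM on a log axis of 17 reported targets of the Zfp36, Regnase and Roquin proteins in each library, with open triangles for libraries at the floor. Fos, Dusp1, Il1b, Il10, Rel and Nfkbiz lie higher in all skin libraries, Icos and Tnfrsf4 overlap between tissues, and Tnf, Ifng, Id3, Tfrc and Pdcd1lg2 are at the floor in all skin libraries.

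Of 23 listed Regnase and Roquin targets, 19 were tested, with 3 higher in skin, 4 in SDLN Tregs and a median log2 fold change of 0.54. Over all tested genes, 1.04% were higher in skin and 45.3% in SDLN Tregs. Rel, the NF-kB subunit c-Rel that Tregs need for their development, measured 710, 336 and 618 CPM in skin Tregs and 42.4 to 123 CPM in SDLN Tregs (2.73 ± 0.674 SE, adjusted p 0.0175 by edgeR). Nfkbiz, a nuclear NF-kB cofactor, was at 1128, 80.4 and 291 CPM in skin and 28.4 to 64.4 CPM in SDLN Tregs (3.30 ± 1.04, adjusted p 0.0451). Ctla4, the inhibitory receptor of Tregs, was the other that rose, at 796 to 1322 CPM against 353 to 583 CPM (1.15 ± 0.366, adjusted p 0.0447), and is named after its value was seen.

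Icos and Tnfrsf4, costimulatory receptors whose mRNAs are classical Roquin targets, did not pass the test. Icos stood at 751, 1416 and 1698 CPM in skin Tregs and at 658 to 891 CPM in SDLN Tregs (log2 fold change 0.86 ± 0.534 SE, adjusted p 0.307 by edgeR). Tnfrsf4 stood at 786, 2011 and 2381 CPM in skin and 1250 to 2903 CPM in SDLN Tregs (−0.07 ± 0.687, adjusted p 0.980). Nfkbid was at 47.2 to 192 CPM and 45.2 to 86.1 CPM (adjusted p 0.816). Pdcd1lg2, Tnf, Id3 and Tfrc were lower in skin, with at most 1 count in any skin library, and passed the filter only through SDLN Tregs.

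Over all tested coding genes, the number of heptamers in the 3′ UTR was set beside the calls. Of genes with 0 heptamers, 44.7% were higher in SDLN and 1.13% in skin Tregs. With 1 heptamer the shares were 43.0% and 0.941%, and with 3 or more they were 46.9% and 1.42%. Of the 733 genes with 2 heptamers, 42.4% were higher in SDLN Tregs and 11 genes in skin Tregs. The shares did not follow the number of heptamers in one direction.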

How the data were processed

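The authors trimmed paired-end reads with Trimmomatic 0.36, mapped them to GRCm38 with STAR 2.5.2b and counted unique exon reads with featureCounts (Subread 1.5.2). The table they deposited holds raw counts by Ensembl gene. The annotation, the strand setting and the handling of duplicates are not given in the sources used here. The protocol names no molecular identifiers, so floors cover counting error only, whereas the intervals of fold changes carry the spread between libraries. Symbols, exons, 3′ UTRs and positions came from GENCODE M21 (GRCm38), which named 49056 of 49315 genes. Promoters came from RefSeq (GRCm38.p6), where 7 of the 8 members matched.

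Columns lettered A to C were assigned to a tissue by name. Groups follow the sample titles, since the labels give skin as tissue for every sample. All samples carry the same batch number. Each library pools mice, and p-values measure the spread between these libraries. The methods paragraph on the sorted Tregs names no test. DESeq2, which the study names for its whole-skin libraries, was run as an alternative.

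Counts were tested with edgeR 4.0.16 in R 4.3.3 (filterByExpr, TMM, robust quasi-likelihood F test, tissue as the only term), with Benjamini-Hochberg adjustment over all genes tested. SEs came from the F statistic. The common dispersion was 2.04. It was tested on simulated data for this comparison (13572 genes, 200 of them shifted by 3 in log2): 97.5% of the shifted genes were called at a dispersion of 0.1, and 0% when the dispersion was 2. Family shares used exact permutation tests over libraries (scipy 1.17.1), with 3 shares as one family of tests.

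The 8 members and 19 lists were chosen with earlier results of these data known. Named genes are the members, up to 4 tested genes per list by smallest adjusted p, 16 genes of the lists whatever their values, Foxp3 and the marker lists, and the 3 genes most like each member except Zc3h12c, whose mean was below 10 CPM. Alternatives were other normalizations, DESeq2 1.42.0, limma voom (3.58.1), other filters (none, or 10 counts in every library), non-robust dispersions, drawing down to the smallest total, a threshold of 0.01, each library left out in turn, shares without division by length, and, chosen after seeing the data, skin Tregs B alone.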

Additional observations from a re-analysis of the deposited data

How the results depend on the processing

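The number of members called was 0 in both directions under most settings. DESeq2 called 1 higher in skin (Zfp36), voom called 1 higher in SDLN Tregs (Zc3h12c, −4.42, adjusted p 0.0396), and leaving out single libraries gave 0 to 1 in each direction. With single libraries left out, the log2 fold change ranged from 2.63 to 4.30 for Zfp36, from −0.090 to 0.51 for Zfp36l1 (below 0 without SDLN Tregs C), from −1.42 to 0.81 for Zfp36l2, from −2.91 to 0.13 for Rc3h1 and from −7.11 to 1.81 for Rc3h2. Under voom, Zfp36l2 was −3.03, Zc3h12a −1.13, Rc3h1 −3.98 and Rc3h2 −2.33. Upper-quartile scaling gave 4.80 for Zc3h12d, 7.34 for Zfp36l1 and 11.78 for Zfp36, and moved the median of all genes from −2.21 to −1.24. Without skin Tregs A, Rc3h1 was 0.13. Without skin Tregs B, Zfp36l2 was −1.42. Without skin Tregs C, Rc3h2 was −7.11 and the difference in Rc3h1 share 18.1. The cause of these changes was not tested. With single libraries left out, the difference in Zfp36 share ranged from 23.9 to 58.2 percentage points, that in Zc3h12a share from 4.24 to 16.3 and that in Rc3h1 share from −67.5 to 18.1.

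Skin Tregs B was the only skin library with Foxp3 above the floor. Set alone against the 3 SDLN libraries, on the assumption that it varies as they do, it gave 4 members higher (Zfp36 3.72, adjusted p 0.00301, Zfp36l2 1.63, 0.0330, Zc3h12a 2.57, 0.000977, and Rc3h1 1.11, 0.0335) and 1 lower (Rc3h2 −6.13, 0.000916), with Zc3h12d at 0.27. Of all genes, that fit called 10.6% higher and 46.0% lower in skin. This fit was chosen after seeing the data. Skin Tregs B also held 39503 CPM of summed myeloid markers, against 717 to 1001 CPM in SDLN Tregs. Its immediate-early and heat-shock sum was 23526 CPM, against 6090 to 7720 CPM. It had 0 counts of Izumo1r and Nrp1, and its Foxp3 level of 28.1 CPM lay below all SDLN libraries. The part of myeloid RNA and of digestion in the calls of this fit was not tested. With at least 10 counts required in every library, 81 genes were higher and 9 lower in skin of 1396 tested, against 141 and 6142 of 13572. The number higher in skin was 404 with DESeq2, 77 with no filter and 71 to 324 with single libraries left out, and the number lower was 4020 when libraries were drawn down to the smallest total. No paired analysis was possible because letters in the count table and numbers in the titles are not linked, nor are letters across tissues.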
